A study of Homo sapiens with 9 samples.

Results

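The S100 proteins and the annexins are the calcium-binding protein families followed here in multicellular tumor spheroids (MTSs) of PC3 cells that overexpress either splice isoform of NF-YA. Members were taken by name, as the genes of the deposited tables called S100A followed by a number (S100A7A included), S100P, S100B or ANXA followed by a number, which gave 30 members (18 S100 genes and 12 annexins) of 27111 genes. PC3 is a human prostate cancer cell line derived from a bone metastasis. Cells carried a lentiviral vector without insert (Empty), or with the long (NF-YAl) or the short (NF-YAs) isoform of NF-YA, the subunit through which the trimer NF-Y recognises CCAAT boxes, and 3 libraries were sequenced per line. All 3 lines were selected with puromycin, and each library came from a pool of MTSs grown in an independent experiment. Whether a line was transduced more than once is not stated, so the p-values cover the spread between these libraries. The cDNAs are murine, and their reads were counted on human NFYA as far as they aligned.

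S100 proteins are small proteins with EF-hand motifs that bind calcium, pair into dimers and then dock on target proteins, and several of them are also released and act on cell surface receptors such as AGER (RAGE). Annexins bind negatively charged phospholipids when calcium rises and gather at membranes during trafficking, exocytosis and repair of the plasma membrane. Both families meet in known complexes, in which S100A10 binds the N-terminal tail of ANXA2 and S100A11 that of ANXA1. Most S100 genes lie in a cluster on the long arm of chromosome 1, whereas annexin genes are scattered over the genome.

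Total expected counts were 18076979 to 27163976 per library. The overexpressed gene, NFYA, stood at 14.96 to 19.9 TPM (reads scaled for transcript length and library total) in Empty, 59.3 to 116 with NF-YAl and 49.3 to 60.8 with NF-YAs, without overlap with Empty. Of the markers of the line, the epithelial keratins KRT8 (70.4 to 223 TPM) and KRT18 (212 to 423) and the mesenchymal filament gene VIM (458 to 957) were present in all libraries, and KLK3, the gene of prostate-specific antigen, was listed at 0. Among 12 marker genes of leukocytes, endothelium and stroma, 9 in Empty, 10 with NF-YAl and 11 with NF-YAs stayed below 1 TPM in all 3 libraries, and their summed level, which was mostly CD68, was 38.9 to 46.1, 17.7 to 46.5 and 26.0 to 28.9 TPM. Its part in the results below was not tested. NF-YAl replicate D stood apart, since the noncoding RNA RN7SL2 took 4.74% of its TPM against 10.8 to 16.3% in the other libraries and its 5 most abundant RNAs 16% against 33.8 to 45.2%. The other RNAs thus shared a larger part of its TPM. TPM are used below for levels of different genes, and CPM (counts scaled to library size by the TMM method) for a gene across lines.

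PC3 MTSs held both families at high levels. S100A6 (calcyclin) was the most abundant member, with 3249, 3130 and 2869 TPM in the Empty libraries, and took 74.6 to 76.0% of all S100 TPM there. It was followed, by the mean over the 9 libraries, by S100A16 (299 TPM), S100A10 (155), S100A13 (135) and S100A11 (120). Among annexins, ANXA2 led with 1035, 901 and 805 TPM in Empty and 47.5 to 49.1% of the annexin TPM, ahead of ANXA5 (370 TPM over the 9 libraries), ANXA7 (234), ANXA11 (195) and ANXA6 (96.7). At the other end, 23 members (13 S100 genes and 10 annexins) passed the filter on low counts, and 7 did not. S100A7 and S100A12 had no count in any library, S100A7A, S100A8 and S100B had at most 1 count, ANXA13 at most 2 and ANXA8 at most 6, a gene whose near-identical copies could share its reads. Levels under 3 counts per library cannot be told from 0 at this depth, and the 7 genes were not tested.

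**Figure D1:**
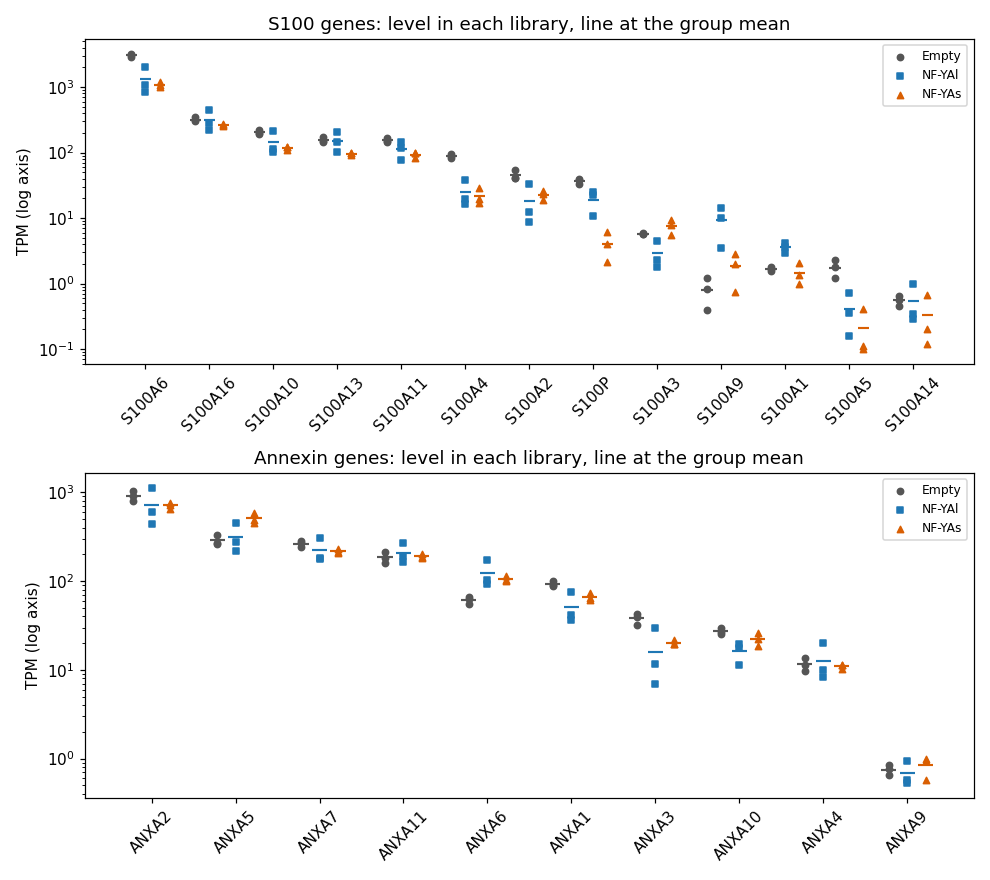
TPM (log axis) of the 23 tested members in each of the 3 Empty, 3 NF-YAl and 3 NF-YAs libraries, ordered by the mean over all 9 libraries, with a line at the mean of each line. S100A6 and ANXA2 head their families, and the highest NF-YAl point of most genes is replicate D.

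To ask how each isoform changed the families, the lines were compared gene by gene. Higher and lower refer to p-values of edgeR (quasi-likelihood test) that stayed under 0.01 after Benjamini-Hochberg adjustment over 17108 genes, and a DEG had a |log2FC| above 1 as well. In NF-YAl against Empty, 14 of the 23 tested members (60.9%) were lower, against a background of 9.54% of all tested genes, and 2 (8.7%) were higher, against 10%. Of these, 9 were down-regulated DEGs (background 3.5%) and 1 was an up-regulated DEG (4.76%). In NF-YAs against Empty, 12 members (52.2%) were lower against 10.5% of all genes and 2 were higher against 12.1%, with 6 down-regulated DEGs (3.9%) and 0 up-regulated ones (5.44%). At an unadjusted p under 0.05 in place of the adjusted one, edgeR gave 0 up-regulated members with a log2FC above 1 in NF-YAs, and DESeq2 gave 0 such DEGs as well. Of the tested members, S100A5 and S100A9 reached the count limit of the filter in too few libraries outside the line where each was high, and their calls carry no weight in these counts. Without them, 13 of 21 members (61.9%) were lower and 1 (4.76%) was higher in NF-YAl, with 8 down-regulated and 0 up-regulated DEGs, and 11 (52.4%) were lower and 2 higher in NF-YAs, with 5 down-regulated DEGs. The median log2FC of the members was -0.71 in NF-YAl and -0.52 in NF-YAs, while that of all genes was 0.01 and -0.00.

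By family, the calls were as follows. Of 13 S100 genes, 9 (69.2%) were lower and 1 (7.69%) was higher in NF-YAl, and 9 (69.2%) were lower in NF-YAs, where the other 4 did not pass. Without S100A5 and S100A9, 8 of 11 (72.7%) were lower in each line and 0 were higher. Of 10 annexins, 5 were lower and 1 was higher in NF-YAl, and 3 were lower and 2 were higher in NF-YAs. Both comparisons share the Empty libraries, so their calls are given side by side and not as separate evidence. S100 mRNAs are short, and among 1782 other tested genes within the same range of effective length, 10.4% were lower in NF-YAl and 9.76% in NF-YAs. Fewer of these short genes were higher, 3.48% and 6.68% against 10% and 12.1% of all genes. Their median log2FC was -0.11 and -0.06. Leaving out Empty replicate C lowered the number of lower members in NF-YAl to 9, and the share over all genes to 5.77%. The unscaled TPM gave far fewer lower members and far fewer lower genes of any kind, as is set out at the end.

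**Figure D2:**
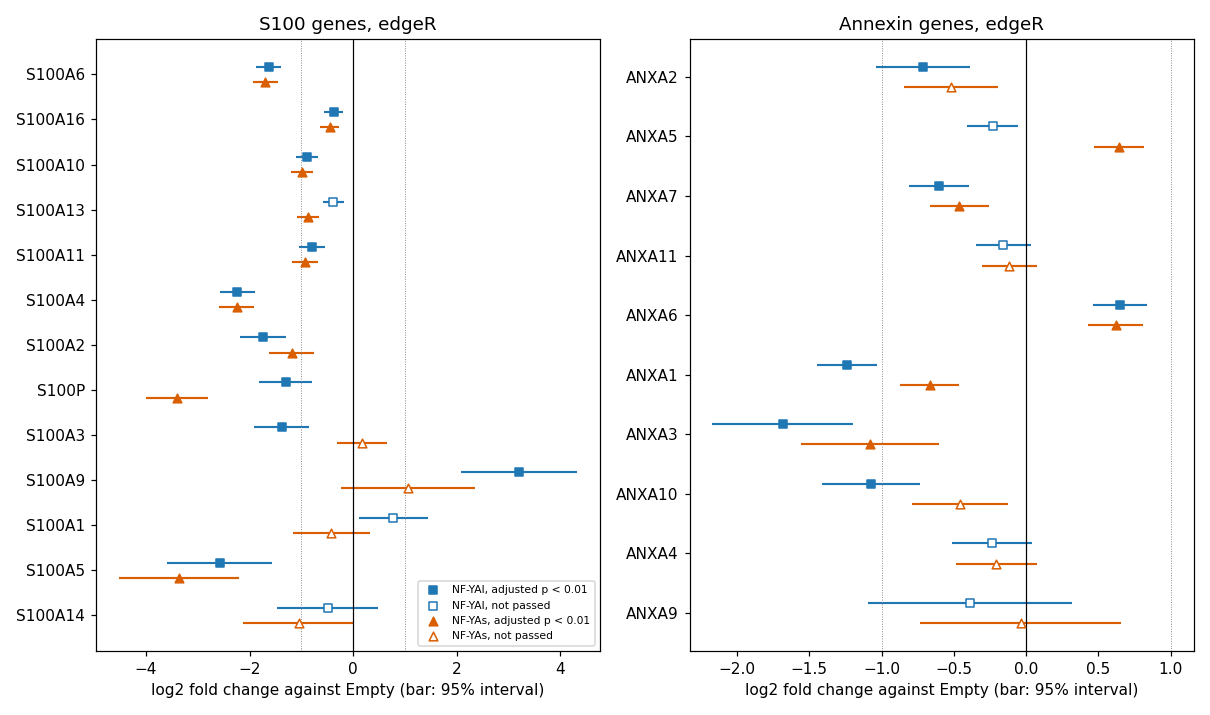
Log2FC over Empty of each tested member in NF-YAl (squares) and NF-YAs (triangles), with 95% intervals, where filled symbols passed an adjusted p under 0.01 and dotted lines mark a log2FC of -1 and 1. Most filled symbols lie left of 0, ANXA6 lies right of 0 in both lines, and ANXA5, S100P and S100A3 differ between the lines.

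S100A6 and S100A4 each fell by a similar size in both lines. S100A6, which binds CACYBP and annexins and is abundant in dividing cells, had 1281, 1603 and 1519 CPM in Empty, 458, 417 and 545 with NF-YAl and 446, 451 and 463 with NF-YAs. Every library of either overexpressing line was thus below every Empty library. In bulk RNA of MTSs, fewer cells with the transcript and less of it per cell cannot be told apart. Its log2FC was -1.63 (SE 0.124 with adjusted p = 3.19e-06) in NF-YAl and -1.69 (SE 0.125 with adjusted p = 2.2e-06) in NF-YAs by edgeR, and NF-YAl and NF-YAs differed by 0.06 with a 95% interval from -0.18 to 0.30. S100A4 (metastasin), a partner of nonmuscle myosin that is known for its role in cell motility, had 25.3, 31.4 and 29.4 CPM in Empty, 5.52, 5.56 and 7.19 with NF-YAl and 7.16, 4.83 and 6.13 with NF-YAs. Again neither line overlapped with Empty, and the overexpressing lines overlapped with each other. S100A4 fell 4.71-fold with NF-YAl (log2FC -2.23, SE 0.170 with adjusted p = 3.19e-06 by edgeR) and 4.76-fold with NF-YAs (log2FC -2.25, SE 0.171 with adjusted p = 2.65e-06), with a difference of 0.02 between the lines (95% interval -0.33 to 0.36). The S100A4 calls held under all 20 alternatives in each comparison.

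S100A2, an S100 protein of epithelial cell nuclei, was 32.7, 32.5 and 32.9 CPM in the Empty libraries, 5.73, 9.49 and 13.8 with NF-YAl and 14.97, 15.1 and 12.9 with NF-YAs. A log2FC of -1.75 with NF-YAl (SE 0.227 with adjusted p = 0.000129 by edgeR) and of -1.19 with NF-YAs (SE 0.223 with adjusted p = 0.0014) made it a DEG in both, and the direct difference of -0.56 did not pass (adjusted p = 0.0998, and 0.00265 without NF-YAl replicate D). S100A5, known from olfactory neurons, passed the low-count filter through its Empty libraries alone, so that its DEG calls had to follow and support nothing. It had 12, 24 and 32 counts in Empty, 3, 2 and 5 with NF-YAl and 3, 1 and 1 with NF-YAs. Since no NF-YAs library exceeded the floor of 3 counts, its fitted log2FC there gives no size, and its call in NF-YAl (adjusted p = 0.00252) was lost without Empty replicate B (0.0107), Empty replicate C (0.0161) or NF-YAl replicate B (0.0156).

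Smaller decreases were found in the remaining abundant S100 genes. S100A10 (p11), the light chain of the ANXA2 complex, had 149, 173 and 174 CPM in Empty, 81.4, 86.0 and 99.4 with NF-YAl and 79.2, 87.6 and 83.5 with NF-YAs, with a log2FC of -0.89 (SE 0.105 with adjusted p = 6.37e-05 by edgeR) and -0.99 (SE 0.105 with adjusted p = 2.65e-05). S100A11, the partner of ANXA1, had 55.5, 64.2 and 63.8 CPM in Empty, 41.3, 31.5 and 33.2 with NF-YAl and 30.5, 29.2 and 36.7 with NF-YAs. It was lower in both lines, with a log2FC of -0.79 (SE 0.127 with adjusted p = 0.000536 by edgeR) and -0.93 (SE 0.128 with adjusted p = 0.000158). In S100A16, a broadly expressed member, the Empty libraries held 276, 319 and 316 CPM, the NF-YAl libraries 239, 226 and 237 and the NF-YAs libraries 211, 217 and 238. The shift of -0.38 in NF-YAl (SE 0.0940 with adjusted p = 0.00908) was the closest to the threshold and was lost without Empty replicate B (0.0413) or C (0.0471), NF-YAl replicate B (0.0355) or NF-YAs replicate A (0.0156), B (0.0185) or C (0.0158). That of -0.45 in NF-YAs (SE 0.0941 with adjusted p = 0.00276) was lost without Empty replicate B (0.0145) or C (0.0179) or NF-YAs replicate A (0.0188) or B (0.0183).

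When NF-YAl was compared directly with NF-YAs, the lines differed in 5 members (21.7%, against a background of 11% of all genes). Of these, 2 were higher and 3 lower in NF-YAl (8.7% and 13% of the tested members, against 4.7% and 6.25%). The DEGs were 1 higher (background 1.74%) and 1 lower (2.86%). The largest of these differences was in S100P, a secreted and cytoplasmic S100 protein that binds ezrin (EZR) and AGER. S100P was 10.1, 11.2 and 14.0 CPM in Empty, 6.31, 3.56 and 4.56 with NF-YAl and 1.51, 0.597 and 1.24 with NF-YAs, and no library of a line overlapped with those of another. Against Empty its log2FC was -1.3 for NF-YAl (SE 0.259 with adjusted p = 0.0024 by edgeR) and -3.40 for NF-YAs (SE 0.305 with adjusted p = 8.2e-06), a direct difference of 2.10 (SE 0.312 with adjusted p = 0.000712), or 4.28-fold. The NF-YAl call was lost without Empty replicate C (0.0162) or NF-YAl replicate B (0.0129), whereas the NF-YAs call and the direct difference held under all 20 alternatives.

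S100A3, a cysteine-rich protein of the hair cuticle, showed the reverse order at a low level. It had 2.47, 3.26 and 3.42 CPM (59, 82 and 87 counts) in Empty, 0.849, 1.27 and 1.36 CPM (16, 31 and 33 counts) in NF-YAl and 3.82, 2.54 and 3.92 CPM (71, 51 and 85 counts) in NF-YAs. The NF-YAl libraries lay below all others, and Empty and NF-YAs overlapped. S100A3 was a DEG in NF-YAl against Empty (log2FC -1.38, SE 0.268 with adjusted p = 0.00201 by edgeR) and against NF-YAs (-1.55, SE 0.270 with adjusted p = 0.00188), while in NF-YAs against Empty it was 0.17 with a 95% interval from -0.32 to 0.65. The first call was lost without Empty replicate C (0.0112) and the second without NF-YAs replicate C (0.0116). S100A13, which takes part in the unconventional release of FGF1, had 57.96, 66.8 and 67.1 CPM in Empty, 53.1, 44.8 and 49.2 with NF-YAl and 31.9, 36.3 and 36.5 with NF-YAs. The lines formed separate steps, with a log2FC of -0.87 in NF-YAs (SE 0.104 with adjusted p = 5.95e-05), of -0.38 in NF-YAl, which missed the threshold (SE 0.103 with adjusted p = 0.0135, but 0.00638 without NF-YAl replicate A and 0.00469 with DESeq2), and of 0.49 between them (SE 0.105 with adjusted p = 0.00603). This direct difference was lost when Empty replicate B (0.0107) or C (0.012), NF-YAl replicate A (0.0116) or NF-YAs replicate A (0.0336), B (0.0221) or C (0.0218) was left out.

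S100A9 was the 1 S100 gene called higher, at very low counts. It is a myeloid protein that pairs with S100A8 in calprotectin and is also induced in stressed epithelia. Its counts were 9, 4 and 9 in Empty, 92, 34 and 53 with NF-YAl and 11, 5 and 22 with NF-YAs, or 0.377, 0.159 and 0.354 CPM, 4.88, 1.39 and 2.18 CPM and 0.592, 0.249 and 1.01 CPM. All NF-YAl libraries exceeded all others, with a log2FC of 3.21 over Empty (SE 0.572 with adjusted p = 0.00115 by edgeR), or 9.23-fold. In NF-YAs it was 1.06 (SE 0.660 with adjusted p = 0.235), and the direct difference of 2.14 had an adjusted p of 0.013, which was 0.00769 without NF-YAl replicate B, 0.00903 without NF-YAl replicate D, 0.00542 with no low-count filter and 0.00119 with DESeq2. S100A9 passed that filter through NF-YAl, where all 3 libraries reached it, and 2 NF-YAs libraries, and its call over Empty is given as a description. S100A8 had at most 1 count in any library, and the leukocyte marker PTPRC stayed at or below 0.54 TPM and CD14 at or below 0.93 TPM. CD68, a gene of macrophages that other cells also express, was at 14.8 to 41.97 TPM over all libraries and lower in both overexpressing lines (log2FC -1.07, adjusted p = 0.000941 by edgeR, and -0.91, adjusted p = 0.00231). The part of such cells in the S100A9 level was not tested. Of the other low members, S100A1, a protein of heart muscle, had 12, 19 and 19 counts in Empty, 28, 29 and 20 with NF-YAl and 12, 7 and 11 with NF-YAs (direct log2FC 1.20, SE 0.362 with adjusted p = 0.0317), and S100A14 had between 2 and 15 counts and passed in no comparison.

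Annexins divided into members that fell, 2 that rose and 3 without a call in any comparison. ANXA1, a ligand of formyl peptide receptors that restrains inflammation, had 102, 123 and 122 CPM in Empty, 45.7, 47.97 and 53.2 with NF-YAl and 73.3, 67.7 and 77.2 with NF-YAs. The lines did not overlap. Against Empty the log2FC was -1.24 for NF-YAl (SE 0.106 with adjusted p = 7.11e-06 by edgeR) and -0.67 for NF-YAs (SE 0.104 with adjusted p = 0.000401), and the direct difference of -0.57 (SE 0.105 with adjusted p = 0.00256) was lost without NF-YAl replicate B (0.0113) or NF-YAs replicate A (0.0113) or C (0.0183). ANXA3 had 46.1, 56.8 and 46.5 CPM in Empty, 8.22, 16 and 21.98 with NF-YAl and 23.0, 23.3 and 24.5 with NF-YAs, and was a DEG in both (log2FC -1.68, SE 0.249 with adjusted p = 0.000323, and -1.08, SE 0.244 with adjusted p = 0.00454). The wide spread of ANXA3 in NF-YAl entered the common estimate of variance, and the NF-YAs call was lost whenever 1 Empty replicate (A 0.0125, B 0.0232, C 0.0132) or 1 NF-YAs replicate (A 0.0213, B 0.0207, C 0.0174) was left out. The direct difference of -0.61 had an adjusted p of 0.1, but of 0.00537 without NF-YAl replicate D. ANXA10, known from the stomach and the urothelium, was 28.5, 32.1 and 34.5 CPM in Empty, 18.4, 13.95 and 12.9 with NF-YAl and 20.7, 19.6 and 28.98 with NF-YAs. It was a DEG in NF-YAl only by the rule (log2FC -1.07, SE 0.172 with adjusted p = 0.00054), since it was -0.46 in NF-YAs (adjusted p = 0.0533) and the direct difference of -0.62 did not pass (adjusted p = 0.0232, and 0.00507 without NF-YAl replicate A and 0.00591 with DESeq2).

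Among the abundant annexins, ANXA2, which assembles plasminogen activation at the cell surface, had 1085, 1231 and 1126 CPM in Empty, 492, 801 and 806 with NF-YAl and 775, 744 and 881 with NF-YAs. Both lines lay below Empty, but the low value of NF-YAl replicate A widened the spread. Its log2FC was -0.71 in NF-YAl (SE 0.166 with adjusted p = 0.00618 by edgeR) and -0.52 in NF-YAs (SE 0.166 with adjusted p = 0.0284). The NF-YAl call was lost without Empty replicate A (0.015), B (0.0286) or C (0.0208) or NF-YAs replicate A (0.0114) or B (0.011), and the NF-YAs difference passed without NF-YAl replicate A (0.000685), with DESeq2 (0.00907) and in a fit of NF-YAs and Empty alone (0.000318). In a fit of NF-YAl and Empty alone, the NF-YAl call was lost (0.0207). Reads of ANXA2 pseudogenes can be shared with it in counting. ANXA7 (synexin), which promotes membrane fusion, had 482, 598 and 562 CPM in Empty, 342, 387 and 355 with NF-YAl and 382, 387 and 424 with NF-YAs. It was lower in NF-YAl (log2FC -0.60, SE 0.105 with adjusted p = 0.00101) and in NF-YAs (-0.46, SE 0.105 with adjusted p = 0.0047), where the call was lost without Empty replicate B (0.0249) or C (0.0244) or NF-YAs replicate A (0.0274), B (0.0277) or C (0.0125).

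ANXA6 and ANXA5 rose. ANXA6, an annexin with a duplicated core that acts in membrane repair and cholesterol transport, had 141, 172 and 154 CPM in Empty, 237, 250.4 and 246 with NF-YAl and 233, 231 and 253 with NF-YAs. All overexpressing libraries were above all Empty libraries, with a log2FC of 0.65 for NF-YAl (SE 0.0957 with adjusted p = 0.000306 by edgeR) and 0.62 for NF-YAs (SE 0.0957 with adjusted p = 0.000377), and they differed by 0.03 from each other (95% interval -0.15 to 0.22). ANXA5, whose binding to phosphatidylserine is used to stain dying cells, had 354, 372 and 387 CPM in Empty, 318, 299 and 332 with NF-YAl and 606, 568 and 565 with NF-YAs. It was higher in NF-YAs alone (log2FC 0.64, SE 0.0893 with adjusted p = 0.000172), was -0.23 in NF-YAl (SE 0.0891 with adjusted p = 0.0664), and the direct difference of -0.87 passed (SE 0.0897 with adjusted p = 6.11e-05), with no overlap between the lines. ANXA11, a protein of RNA granules, had 371, 418 and 374 CPM in Empty, 363, 361 and 317 with NF-YAl and 342, 350.0 and 380.1 with NF-YAs, and passed in no comparison (95% interval of the log2FC -0.35 to 0.03 in NF-YAl and -0.31 to 0.07 in NF-YAs). Nor did ANXA4 (272 to 590 counts) or ANXA9 (11 to 32 counts).

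Summed within a library, the S100 genes held 4357, 4116 and 3826 TPM in Empty, 1807, 1396 and 3135 with NF-YAl and 1862, 1672 and 1635 with NF-YAs. Both lines were below Empty, by 2.05-fold in NF-YAl and 2.38-fold in NF-YAs as ratios of geometric means, with p = 0.1 in the two-sided exact permutation test, the smallest value that 3 libraries against 3 allow (0.2 adjusted over 12 tests of sums and ratios). S100A6 carried most of this, and its part of the S100 TPM was 59.8 to 64.0% in NF-YAl and 62.5 to 63.9% in NF-YAs. The summed annexins were 2107, 1847 and 1692 TPM in Empty, 1263, 1328 and 2467 with NF-YAl and 2022, 1745 and 1812 with NF-YAs, and overlapped in all comparisons (exact p = 0.5 for NF-YAl and 0.9 for NF-YAs against Empty). The high NF-YAl value was replicate D, in which RNAs other than the most abundant ones shared a larger part of the TPM, as given above. With CPM, the annexin sum was 1.37-fold lower in NF-YAl (exact p = 0.1) and 1.13-fold lower in NF-YAs (exact p = 0.2).

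Ratios within a library do not depend on its scaling. The TPM of S100A10 per TPM of ANXA2 were 0.214, 0.22 and 0.241 in Empty, 0.258, 0.168 and 0.192 with NF-YAl and 0.160, 0.185 and 0.148 with NF-YAs. Thus the NF-YAs libraries were below Empty, 1.37-fold, and NF-YAl overlapped with both (exact permutation p = 0.1 for NF-YAs and 0.5 for NF-YAl against Empty). For S100A11 per ANXA1, the ratios were 1.71, 1.65 and 1.63 in Empty, 2.85, 2.08 and 1.93 with NF-YAl and 1.33, 1.37 and 1.5 with NF-YAs. This ratio was 1.36-fold higher in NF-YAl and 1.19-fold lower in NF-YAs than in Empty, and the lines did not overlap (exact permutation p = 0.1 in each of the 3 comparisons, 0.2 adjusted).

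Of the members with several annotated transcripts, 8 had at least 5 TPM. The share of the leading transcript did not overlap with Empty for 2 of them in NF-YAl (background 15.3% of 6909 genes), for 2 in NF-YAs (19.9%) and in the direct comparison of the isoforms for 0 (15.2%). S100A13 was among both. Its leading transcript made up 52.9 to 59.1% of the gene's TPM in Empty, 39.97 to 46.9% with NF-YAl and 40.4 to 52.5% with NF-YAs (exact permutation p = 0.1 for each line against Empty, and 0.6 adjusted over 24 tests). In ANXA7 the leading transcript made up less than in Empty (92.3 to 94.1%) in NF-YAl (87.7 to 91.3%), and in S100A16 (95.2 to 95.8% in Empty) in NF-YAs (91.9 to 93.9%). ANXA2 kept 90.6 to 93.5% on its leading transcript over all libraries. Shares this close to the background rate are given as a description. S100A13 overlaps S100A1 on the opposite strand, and whether strand was used in counting is not stated.

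The map of these genes places 16 of the 18 S100 genes on chromosome 1 (GRCh37), from S100A10 (start 151955391, minus strand) to S100A1 (end 153604515, plus strand), with 14 of them between 153330330 and 153604515. Within this stretch S100A6 (153507075 to 153508720), S100A5 (153509623 to 153514241), S100A4 (153516089 to 153522612), S100A3 (153519805 to 153521734) and S100A2 (153533584 to 153540366) follow each other on the minus strand, and S100A3 lies inside the span of S100A4 on the same strand, and any read that fits transcripts of both would have been shared between them by RSEM. Apart from S100A5, which is too low in both overexpressing lines to be counted here, the other 4 were DEGs in NF-YAl with a log2FC of -2.23 to -1.38. In NF-YAs 3 of these 4 were DEGs, with a log2FC of -2.25 to -1.19, and S100A3 was not called. Next to them, S100A16, S100A14 and S100A13 had log2FC of -0.49 to -0.38 in NF-YAl, where S100A16 alone of the 3 was called, and of -1.05 to -0.45 in NF-YAs, where S100A16 and S100A13 were called. S100A9, at 153330330 to 153333499 on the plus strand, was the gene of the cluster called higher in NF-YAl, at low counts. Among 17 tested genes of other families from the same region (153269592 to 154531504), 1 was lower in NF-YAl (5.88%, against 9.54% of all tested genes) and 6 were lower in NF-YAs (35.3%, against 10.5%), all with a |log2FC| under 1. Their median log2FC was -0.13 and -0.37. S100P lies apart, on the plus strand of chromosome 4 (6695605 to 6698897), as do ANXA1 on chromosome 9 (75766781 to 75785309, plus), ANXA3 on chromosome 4 (79472901 to 79531605, plus), ANXA5 on chromosome 4 (122589101 to 122618150, minus) and ANXA6 on chromosome 5 (150480267 to 150537376, minus).

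Since NF-Y binds CCAAT boxes, the promoters of the members were read for CCAAT or its reverse complement ATTGG, on either strand and in windows of 250 bases before to 50 bases after each start site (RefSeq, GRCh38.p14). Windows were found for 27 of the 30 members, and 9 of these genes (33.3%) had a match, against 39.7% of 27305 genes with a window. Among the members lower in NF-YAl 5 of 14 had one, and among those lower in NF-YAs 5 of 12. The promoters of 6 members are shown as examples picked by hand, so the share of matches among them says nothing about the families. S100A2 and S100A10, called lower in both lines, have no match and are not shown. The motif is in capitals and the rest in lower case, 5′ to 3′ in the direction of the gene. S100A6 and S100A4, DEGs in both lines, and S100P, which had the largest direct difference among the 5 members called between the isoforms, have no match in this window. S100A3, which was lower in NF-YAl, has a CCAAT 80 bases before and an ATTGG 8 bases after the start. ANXA1, which was lower in both lines, has an ATTGG 160 bases and a CCAAT 77 bases before it. ANXA6, which rose in both lines, has an ATTGG 66 bases before it in 1 of its windows, and its other window, which is not shown, has none.
S100A6 (chr1:153535942-153536241, minus strand): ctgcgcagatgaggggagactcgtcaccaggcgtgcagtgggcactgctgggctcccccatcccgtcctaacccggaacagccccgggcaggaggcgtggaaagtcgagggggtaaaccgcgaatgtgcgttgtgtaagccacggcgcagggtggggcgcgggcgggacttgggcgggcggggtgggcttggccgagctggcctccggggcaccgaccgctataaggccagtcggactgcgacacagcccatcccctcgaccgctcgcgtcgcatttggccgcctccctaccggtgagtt
S100A4 (chr1:153545757-153546056, minus strand): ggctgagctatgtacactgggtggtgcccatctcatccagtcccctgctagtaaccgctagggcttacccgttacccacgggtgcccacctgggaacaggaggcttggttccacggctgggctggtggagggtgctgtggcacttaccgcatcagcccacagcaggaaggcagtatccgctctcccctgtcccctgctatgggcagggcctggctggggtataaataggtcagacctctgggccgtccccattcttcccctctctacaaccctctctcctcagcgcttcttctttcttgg
S100P (chr4:6693628-6693927, plus strand): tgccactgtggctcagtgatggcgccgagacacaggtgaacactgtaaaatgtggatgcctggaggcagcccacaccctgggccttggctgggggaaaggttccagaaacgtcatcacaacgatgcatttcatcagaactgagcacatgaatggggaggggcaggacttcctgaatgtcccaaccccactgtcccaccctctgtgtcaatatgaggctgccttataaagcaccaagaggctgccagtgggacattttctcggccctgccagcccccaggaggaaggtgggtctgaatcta
S100A3 (chr1:153549209-153549508, minus strand): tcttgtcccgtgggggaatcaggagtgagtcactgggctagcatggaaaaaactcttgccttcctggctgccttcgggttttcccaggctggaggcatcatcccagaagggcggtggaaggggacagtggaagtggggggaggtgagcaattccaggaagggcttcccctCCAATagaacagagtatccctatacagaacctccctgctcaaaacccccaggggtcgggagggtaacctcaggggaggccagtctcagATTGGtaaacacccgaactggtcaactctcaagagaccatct
ANXA1 (chr9:73151615-73151914, plus strand): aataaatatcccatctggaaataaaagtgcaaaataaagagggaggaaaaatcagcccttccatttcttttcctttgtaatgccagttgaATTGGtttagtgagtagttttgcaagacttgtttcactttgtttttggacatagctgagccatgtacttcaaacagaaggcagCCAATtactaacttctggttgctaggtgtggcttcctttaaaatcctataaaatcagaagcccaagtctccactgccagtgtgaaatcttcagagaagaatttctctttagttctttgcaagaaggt
ANXA6 (chr5:151157730-151158029, minus strand): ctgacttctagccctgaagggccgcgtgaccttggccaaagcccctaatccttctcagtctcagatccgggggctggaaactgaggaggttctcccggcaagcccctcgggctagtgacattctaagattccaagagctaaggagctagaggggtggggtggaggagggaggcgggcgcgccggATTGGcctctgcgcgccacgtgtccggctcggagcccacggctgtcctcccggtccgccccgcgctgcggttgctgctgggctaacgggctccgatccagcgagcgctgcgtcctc

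The remaining matches were in ANXA7 (ATTGG, 218 bases before the start), ANXA11 (CCAAT, 49 before), S100A16 (ATTGG, 237 and 29 before), S100A13 (ATTGG, 116 before), S100A5 (ATTGG, 35 after) and S100A8 (CCAAT, 219 before). Members with and without a match are thus found among those that fell and those that rose. ANXA5, which rose in NF-YAs, and S100A9, which was called higher in NF-YAl, have none. A match of 5 letters describes the sequence and is not a bound site, and binding was not measured here.

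The surroundings of the families were followed through lists of related genes. Of 24 tested receptors and binding partners of S100 proteins and annexins, 3 were higher and 6 lower in NF-YAl, 3 higher and 8 lower in NF-YAs, and 1 higher and 2 lower in NF-YAl against NF-YAs (median log2FC -0.23, -0.26 and -0.05). Lower genes were thus 25% in NF-YAl and 33.3% in NF-YAs, against 9.54% and 10.5% of all tested genes, and higher genes 12.5% in each, near the background of 10% and 12.1%. Against each other the lines had 4.17% higher and 8.33% lower, near the background of 4.7% and 6.25%. Of these, AHNAK2, a giant scaffold protein related to the S100A10 and ANXA2 partner AHNAK, was at 1305 ± 84.5 CPM in Empty, 582 ± 76.2 with NF-YAl and 607 ± 77.98 with NF-YAs (SD, n = 3), with a log2FC of -1.17 (adjusted p = 4.01e-05 by edgeR) and -1.10 (adjusted p = 4.86e-05). PLAT, the tissue plasminogen activator that binds ANXA2 with S100A10, was at 1957 ± 296 CPM in Empty and 792 ± 202 in NF-YAl (log2FC -1.3, SE 0.184 with adjusted p = 0.00023). In NF-YAs the log2FC of PLAT, -0.95, stayed under the limit for a DEG. PLAU, also a plasminogen activator, was higher in NF-YAs, with a mean of 606 CPM against 359 in Empty. Its log2FC there was 0.75 (adjusted p = 0.000518 by edgeR). In NF-YAl PLAU did not pass (log2FC -0.23, adjusted p = 0.165), and it was lower than in NF-YAs (-0.99, adjusted p = 0.000214).

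Of 25 tested genes of plasma membrane repair and calcium-dependent fusion, 9 were lower and 2 higher in NF-YAl, 2 lower and 2 higher in NF-YAs, and 6 lower in NF-YAl against NF-YAs (median log2FC -0.37, -0.09 and -0.21). The lower genes were 36% in NF-YAl, against a background of 9.54%, and 24% in NF-YAl against NF-YAs, where the background was 6.25%. The 8% lower and 8% higher in NF-YAs did not exceed the 10.5% and 12.1% of all genes, nor the 8% higher in NF-YAl its 10%. CAV1, the main coat protein of caveolae, was a DEG in NF-YAl (log2FC -1.37, SE 0.289 with adjusted p = 0.00336 by edgeR). SYTL4, which tethers secretory vesicles, was higher in NF-YAs (4.65 ± 0.965 CPM in Empty and 18.5 ± 0.876 in NF-YAs, log2FC 2.0, adjusted p = 4.93e-06). Among 15 tested calcium-binding relatives outside the families, RPTN was the 1 lower gene in each line against Empty (6.67%, against 9.54% and 10.5% of all genes). RPTN was low throughout, at 3.69 ± 0.410 CPM in Empty, 0.463 ± 0.267 with NF-YAl and 0.319 ± 0.333 with NF-YAs. CALB1 was higher in NF-YAl than in NF-YAs with a spread about as large as its mean (24.5 ± 24.2 against 1.07 ± 0.546 CPM, log2FC 4.53, adjusted p = 0.00368). Only 5 of 22 listed genes of the cornified envelope were tested, and each line had 1 higher and 1 lower, with TUFT1 a DEG in NF-YAs (log2FC -1.40, SE 0.127 with adjusted p = 8.94e-06). These lists were not independent of earlier results of these data, and their counts are a description beside the background of all genes.

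The number of members called lower depended on how libraries were scaled, while no call changed direction. With limma on unscaled log2(TPM + 1), 1 of 21 tested members was lower in NF-YAl and 3 in NF-YAs, against 0.93% and 1.21% of all genes. The median log2FC of the members was then -0.49 and -0.35, while that of all genes moved to 0.25 and 0.15. S100A4 kept its call in both lines under all 20 alternatives. With the same test on TPM after TMM scaling, chosen after seeing the data, 12 and 11 of 21 tested members were lower, against 9.2% and 10.4% of all genes. The median of all genes was -0.00 in both.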

How the data were processed

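RNA-seq libraries came from MTSs of PC3 cells transduced with Empty, NF-YAl or NF-YAs vectors, with 3 libraries each. Groups and replicate letters were taken from the labels. The authors aligned reads of a stranded total RNA kit to human transcripts (GRCh37/hg19) with bowtie2 within RSEM, and deposited unnormalized expected counts, TPM corrected for effective length, the percent of a gene's TPM taken by each transcript (IsoPct), and lengths. Use of strand in counting is not given in the sources used here. The deposited FPKM were not used. Some marker genes of the line are not reported here.

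Members and gene lists were chosen with earlier results of these data known. Expected counts were rounded, genes kept by filterByExpr (17108 of 27111), libraries scaled by TMM and all 9 libraries fitted with quasi-likelihood tests in edgeR 4.0.16 (R 4.3.3), with Benjamini-Hochberg adjustment. Calls used an adjusted p of 0.01, and DEGs also a |log2FC| of 1, as in the study's methods, which used DESeq2. SEs are |log2FC| over the square root of F. Total counts were 18076979 to 27163976 per library. Sums, ratios and transcript shares were compared by two-sided exact permutation tests. Library values were given for members that were DEGs with at least 5 TPM in a line, for the 5 most abundant S100 genes and annexins, and for members that differed between NF-YAl and NF-YAs, and for S100A5 and S100A1, which were added after their values were seen. In the gene lists, up to 3 DEGs per list and comparison with at least 5 TPM in the higher line were named. RPTN was named for its low count, and PLAU was added beside PLAT after its values were seen. Positions are from GENCODE on GRCh37, promoters from RefSeq on GRCh38.p14. Alternatives were DESeq2 1.42.0, relative log expression scaling, other filters, a fit of 2 groups, a replicate block, limma 3.58.1 on log2 TPM, a looser threshold, an effective length offset and leaving out libraries. The scripts were tested on simulated data. Plots were made in Python 3.11.15 (matplotlib 3.10.9).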

Additional observations from a re-analysis of the deposited data

Results flagged for a closer look

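For 5 members the overexpressing lines differed, when NF-YAl was set directly against NF-YAs in edgeR's quasi-likelihood test. The calls of S100A13, S100A3 and ANXA1 were each lost when certain single libraries were left out, as given above. S100P was 2.10 higher on the log2 scale in NF-YAl (adjusted p = 0.000712), because it fell further in NF-YAs, and all 3 libraries of NF-YAl were above all of NF-YAs. S100A13 was 0.49 higher in NF-YAl (adjusted p = 0.00603). S100A3 had a log2FC of -1.55 (adjusted p = 0.00188), ANXA5 of -0.87 (adjusted p = 6.11e-05) and ANXA1 of -0.57 (adjusted p = 0.00256), each with all 3 NF-YAl libraries below all NF-YAs libraries. Over all tested genes, 11% passed the same test in either direction. NFYA itself had a higher CPM in every NF-YAl library than in every NF-YAs library, and the part of this in these differences was not tested. Groups of 3 libraries are too small for a test of single outlying libraries.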

How the results depend on the processing

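No call of a member changed direction under any of the alternatives. Of 35 member results past the threshold, 6 kept their call under all of them, 18 lost it with unscaled TPM alone and 11 lost it elsewhere as well. With limma on log2(TPM + 1), NF-YAl against Empty had 1 member higher and 1 lower (1 down-regulated DEG), NF-YAs against Empty 0 higher and 3 lower (3 DEGs), and NF-YAl against NF-YAs 1 higher and 0 lower (0 DEGs). With log2(TPM + 0.1) these were 1 and 1 (1 DEG), 0 and 4, and 1 and 0 (0 DEGs). Calls became rare over all genes as well. With log2(TPM + 1), 3.01% were higher and 0.93% lower in NF-YAl, 2.82% and 1.21% in NF-YAs, and 0.537% and 0.799% between the isoforms. With log2(TPM + 0.1) these shares were 3.62% and 1.01%, 3.43% and 1.42%, and 0.648% and 0.812%. The median log2FC of all genes moved with unscaled TPM by construction, since TPM were not rescaled. With at least 10 counts in every library, S100A9 was not tested, which left 1 higher member and 0 up-regulated DEGs in NF-YAl against Empty. In NF-YAl against NF-YAs, up-regulated DEGs were 2 with DESeq2 and 2 without a filter, since S100A9 gained a call in each. Over all genes, 7.51% and 4.02% were higher in these fits. In a fit of the 2 groups 1 member was higher, against 2.46% of all genes, since S100A13 lost its call (adjusted p = 0.0178 by edgeR). An adjusted p under 0.05 gave 4 higher members, against 10.8% of all genes, and 3 up-regulated DEGs, with S100A1 and S100A9 added. Calls of S100A9 carry no weight, as given above. For DEG counts under the alternatives, the share over all genes was not computed. With the replicate letter as a block, NF-YAl against NF-YAs had 5 lower members, 2 up-regulated and 2 down-regulated DEGs, against 3, 1 and 1 without it (S100A2, ANXA3 and S100A9 gained a call), and 12 and 14 members were lower in NF-YAl and NF-YAs against Empty (S100A5 and S100A16 lost their NF-YAl call, and ANXA2 and ANXA10 gained one in NF-YAs). Over all tested genes, 12.6% and 14.8% were lower against Empty with this block, and 9.43% in NF-YAl against NF-YAs. Libraries of the same letter had residual correlations of -0.07 to 0.25 over 7 pairs (mean 0.09). Those of different letters had -0.22 to 0.16 over 20 pairs (mean -0.03). These ranges overlapped, and whether the letters mark a pairing was not tested. The summed annexin TPM in NF-YAs against Empty differed by -0.01 on the log2 scale, and by -0.17 with CPM.

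Leaving out each library in turn gave 9 to 15 lower members in NF-YAl against Empty, 9 (without Empty replicate C) being the lowest, and 9 to 13 in NF-YAs. In NF-YAl against NF-YAs it gave 1 to 3 higher and 1 to 5 lower members (1 without NF-YAs replicate C, 5 without NF-YAl replicate D), with 1 to 2 up-regulated DEGs (2 without NF-YAl replicate B or D) and 0 to 1 down-regulated ones (0 without NF-YAs replicate C). Higher members there were 1 without Empty replicate B or C, NF-YAl replicate A or any NF-YAs replicate. Over all tested genes, the lower shares in these fits were 5.77 to 12.2% in NF-YAl, 6.28 to 13.5% in NF-YAs and 2.97 to 8.81% between the isoforms. The higher shares between the isoforms were 1.74 to 6.99%. Leading transcript shares did not overlap for 2 to 4 members in NF-YAl (4 without replicate B), 2 to 4 in NF-YAs (4 without replicate A) and 0 to 2 between them (2 without NF-YAs replicate C). Ranges separate more easily with 2 libraries against 3. The share over all genes was not computed for these smaller sets, so the counts are only a description. The summed S100 TPM of NF-YAl against NF-YAs ranged from -0.11 to 0.47 on the log2 scale and changed sign without NF-YAl replicate D. Members under about 30 counts per library are limited by depth.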
